A study of Mus musculus with 6 samples.

Results

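The genes described here are 10 markers of mesothelium, the cell sheet that lines the body cavities, as measured in cultured mouse embryonic fibroblasts of both genotypes of a study of the GATA co-factor FOG-2. They are Msln, Upk1b, Upk3b, Wt1, Lrrn4, Bnc1, Gpm6a, Muc16, Nkain4 and Podxl. Each symbol was looked up in the annotation of the array, and each of the 10 matched 1 row of a table of 23748 rows, 1 row per gene. The genes were chosen with the differences between the genotypes already known, so their differences are given as a description, with no p-value, and support nothing beyond the values themselves.

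The fibroblasts came from embryos at E14.5 and were collected while growing, before any differentiation. There were 3 wild type samples, and 3 samples of genotype FOG-2 Rb-, a knock-in in which, by the title of the study, FOG-2 can no longer bind the retinoblastoma protein pRb. All cells were grown in the same medium with donor bovine serum and carried no other stated allele or agent. Within a genotype the samples are labelled as experiments 1 to 3, called arrays 1 to 3 below, and values are always given in that order. No embryo, litter or culture is named for them, so the errors cover a spread that may be technical. The sample titles carry the number 18 for every wild type sample and 27 for every FOG-2 Rb- sample, so genotype and whatever that number stands for cannot be told apart. Levels are log2 expression values, on which a difference of 1 is a doubling. Array medians lay between 5.65 and 5.73. Correlations across genes were 0.997 to 0.998 between arrays of a genotype and 0.990 to 0.991 between genotypes. Zfpm2, the gene of FOG-2, measured 9.68 ± 0.07 in wild type cells and 9.40 ± 0.01 in FOG-2 Rb- cells (SD, n = 3 each).

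Mesothelium is an epithelium of mesodermal origin that covers the lung, heart, gut and body wall. Its cells combine keratins and tight junctions with mesenchymal proteins, and they carry a coat of surface glycoproteins that keeps facing organs from sticking. In the embryo, mesothelial cells can leave the sheet and give rise to fibroblasts and smooth muscle cells, and the transcription factor WT1 takes part in this. Uroplakins are best known as the plaque proteins of the bladder lining, but Upk1b and Upk3b are also markers of mesothelium.

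The 10 genes did not move as 1 block. In FOG-2 Rb- cells Upk1b was 9.68-fold higher, Upk3b, Wt1 and Gpm6a were 1.55-fold to 2.44-fold higher, and Lrrn4, Nkain4, Bnc1 and Podxl were 1.19-fold to 1.38-fold higher. Muc16 was nearly level, and Msln, the gene of mesothelin, was 2.35-fold lower. Differences ran from -1.23 to 3.27 on the log2 scale with a median of 0.46, where the median of all 23748 rows was -0.02. In the histogram of all rows, 2 rows had a higher difference than Upk1b and 64 rows a lower one than Msln. In RNA from a whole culture, a larger number of cells that express a gene and more of its RNA in each cell cannot be told apart.

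**Figure D1:**
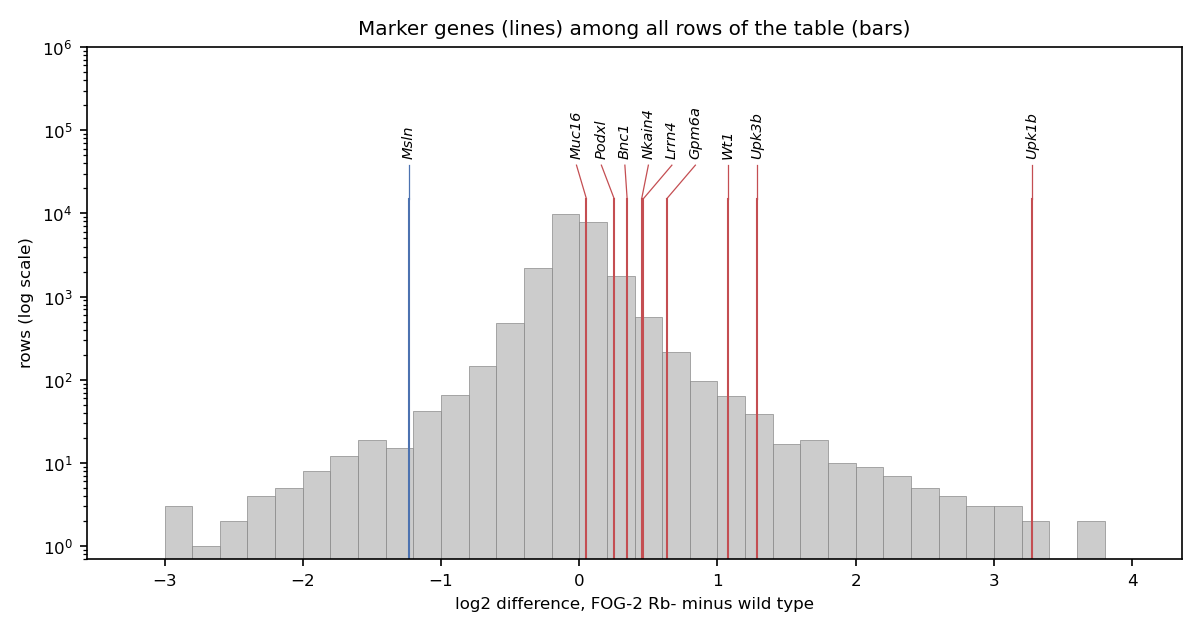
Histogram of the log2 difference (FOG-2 Rb- minus wild type, horizontal axis) over all 23748 rows, with the number of rows on a log vertical axis. Each vertical line marks 1 of the 10 marker genes: Msln stands at -1.23, Muc16 at 0.05, and Upk1b, at 3.27, near the upper end.

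Across all rows, limma's moderated test with Benjamini-Hochberg adjustment called 4281 rows at an adjusted p under 0.05, which is 18% of them: 2241 higher (9.44%) and 2040 lower (8.59%) in FOG-2 Rb- cells. With FOG-2 Rb- array 3 left out, these counts were 1492 and 1313. In the same fit 7 of the 10 genes were past the threshold as higher, 1 (Msln) as lower, and Bnc1 and Muc16 were not past it. The values of the genotypes stood apart, with no overlap between the arrays, for 9 of the 10, where 35.6% of all rows did. Since the genes were picked from this contrast, nothing is read from these counts.

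Upk1b, which encodes a tetraspanin that carries a partner uroplakin to the cell surface, had the highest difference of the 10. It measured 5.94, 5.996 and 6.13 in the wild type arrays and 9.27, 9.26 and 9.36 in the FOG-2 Rb- arrays. The means were 6.02 ± 0.10 and 9.30 ± 0.05 (SD, n = 3 each), 3.27 apart with a standard error (SE, from limma) of 0.07, a 9.68-fold difference. The highest wild type array lay 3.13 below the lowest FOG-2 Rb- array, a gap many times the spread within either genotype.

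Upk3b, which encodes a single-pass uroplakin that pairs with the Upk1b protein, was also higher in every FOG-2 Rb- array. It measured 6.42, 6.21 and 6.15 in the wild type arrays and 7.63, 7.42 and 7.58 in the FOG-2 Rb- arrays. The means were 6.26 ± 0.14 and 7.54 ± 0.11 (SD, n = 3 each), a log2 difference of 1.29 (SE 0.09), or 2.44-fold. No array of either genotype crossed the gap of 1.00 between them. The promoter table of RefSeq (build GRCm38.p6) holds windows of 300 bases, from 250 before to 50 after a gene's start, for 5 of the 10 genes: Upk3b, Lrrn4, Gpm6a (with 2 starts), Bnc1 and Muc16. Windows of the genes that were higher and past the threshold are shown here and below, with matches to motifs of GATA factors, which FOG-2 binds, of E2F factors, which pRb binds, and of TEAD factors. Each window was searched on both strands for the GATA factor letters AGATAA, then AGATAG, also TGATAA, as well as TGATAG, for the TEAD factor letters CATTCC, and for the E2F factor letters TTTCCCGC, TTTCGCGC, TTTGCCGC and TTTGGCGC. The Upk3b window lies at chr5:136038246-136038545 on the plus strand, and its matches stand in capitals, CATTCC starting 241 bases and AGATAG starting 32 bases before the gene's start.
Upk3b: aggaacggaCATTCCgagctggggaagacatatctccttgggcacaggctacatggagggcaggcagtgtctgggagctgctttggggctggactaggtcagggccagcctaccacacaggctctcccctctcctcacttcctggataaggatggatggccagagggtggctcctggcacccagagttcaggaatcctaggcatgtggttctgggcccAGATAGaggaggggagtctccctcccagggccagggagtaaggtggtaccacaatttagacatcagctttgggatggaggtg
Of all 32851 windows in that table, 29.8% hold a GATA match, 14.7% a TEAD match and 2.26% an E2F match. Of the 6 windows of the marker genes, 3 hold a GATA match and 3 a TEAD match, and no window of the 6 holds these E2F letters. No matches overlapped in these 6 windows. A match is a run of letters and does not show that a factor binds there.

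The other uroplakins did not follow Upk1b and Upk3b past the threshold. Of all rows, 9.44% were called higher and 8.59% lower at that threshold. Of 10 urothelial genes measured, which include Upk1a, Upk2, Upk3a and Upk3bl, 1 fell, Trp63, a transcription factor gene of basal epithelial cells (log2 difference -0.27, SE 0.05, limma adjusted p = 0.0153), and 9 did not pass. Trp63 lay under the 95th percentile of 1088 odorant receptor rows, a rough guide to background given below with Muc16, in both genotypes. At an unadjusted p under 0.05 there was 1 higher gene and 1 lower gene. Leaving out FOG-2 Rb- array 1 or 3 ended the Trp63 call, and the count was then 0. Upk1a, the closest relative of Upk1b, measured 4.97 ± 0.02 in wild type cells and 5.03 ± 0.06 in FOG-2 Rb- cells (SD, n = 3 each), with overlapping arrays. Like Trp63, Upk1a, Krt20, Grhl3 and Psca lay under the odorant receptor 95th percentile (5.07) in both genotypes, so a lack of change cannot be read for them. Upk2, Upk3a and Upk3bl lay not far above it, with genotype means of 5.19 to 5.44. Upk3a and Upk3bl had log2 differences of -0.05 and 0.03, and Upk2 one of -0.25 (adjusted p = 0.168). The median log2 difference of the 10 was 0.00.

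Wt1, which encodes a zinc finger transcription factor of mesothelium, epicardium, gonad and kidney, was higher in each FOG-2 Rb- array. It measured 6.07, 6.12 and 5.99 in the wild type arrays and 6.96, 7.21 and 7.23 in the FOG-2 Rb- arrays. The means were 6.06 ± 0.06 and 7.13 ± 0.15 (SD, n = 3 each), a log2 difference of 1.07 (SE 0.08), or 2.103-fold. FOG-2 Rb- array 1 was the lowest of its genotype and still 0.84 above every wild type array.

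Bnc1, which encodes the zinc finger protein basonuclin 1 of keratinocytes, germ cells and mesothelium, showed a small difference. It measured 5.77, 5.59 and 5.88 in the wild type arrays and 6.04, 5.99 and 6.24 in the FOG-2 Rb- arrays. The means were 5.75 ± 0.15 and 6.09 ± 0.13 (SD, n = 3 each), a log2 difference of 0.35 (SE 0.10). The arrays stood apart by 0.11, less than 1 SD of either genotype, and Bnc1 was past the threshold only when wild type array 3 was left out among the 6 fits that each left out 1 array. It was also past it with arrays centred on their medians, with the variance prior changed and with dim rows left out. Its promoter window, at chr7:81992250-81992549 on the minus strand, is 83.3% G and C and has no match to the letters searched.

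Msln went the other way. It encodes the precursor of mesothelin, a surface protein held by a lipid anchor, which binds the mucin MUC16. It measured 7.70, 7.78 and 7.88 in the wild type arrays and 6.62, 6.54 and 6.49 in the FOG-2 Rb- arrays. The means were 7.78 ± 0.09 and 6.55 ± 0.06 (SD, n = 3 each), a log2 difference of -1.23 (SE 0.06), or 2.35-fold lower. All 3 FOG-2 Rb- arrays lay at least 1.08 below all 3 wild type arrays. Mslnl, a relative of Msln, had a log2 difference of -0.10 with overlapping arrays. Its means, 5.12 in wild type and 5.02 in FOG-2 Rb- cells, lay close to the odorant receptor 95th percentile of 5.07.

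Muc16, the large membrane mucin that mesothelin binds, measured 3.47, 3.34 and 3.26 in the wild type arrays and 3.43, 3.41 and 3.40 in the FOG-2 Rb- arrays. The means were 3.36 ± 0.11 and 3.41 ± 0.01 (SD, n = 3 each), and the FOG-2 Rb- arrays lay within the range of the wild type arrays. The table gives no detection calls. As a rough guide to its lower end, 1088 rows of odorant receptor genes, which fibroblasts are not known to use, had a median of 3.55 and a 95th percentile of 5.07, with the reserve that probes differ in brightness. Muc16, Lrrn4 and Podxl lay under that percentile in both genotypes and Gpm6a in wild type cells, so their fold differences may be understated, while the other 6 genes lay above it in both genotypes.

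Podxl encodes podocalyxin, a sialic acid-rich surface protein of the CD34 family found on podocytes, vessels and mesothelium. It measured 4.75, 4.72 and 4.84 in the wild type arrays and 5.13, 4.91 and 5.02 in the FOG-2 Rb- arrays. The means were 4.77 ± 0.06 and 5.02 ± 0.11 (SD, n = 3 each), a log2 difference of 0.25 (SE 0.07). The genotypes were 0.07 apart, and the call was lost in 5 of the 6 fits that left out 1 array, all but the fit that left out FOG-2 Rb- array 2. Podxl was also not called with arrays centred on their medians, with the variance prior changed or from the p-values of the authors' deposited table.

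Genes of the proteins that tie podocalyxin to the actin skeleton were measured as well. Of 5 such genes, 3 rose and 2 did not pass, with a median log2 difference of 0.23. Beside this count and the podocyte count below, 9.44% of all rows were called higher and 8.59% lower. Slc9a3r1, which encodes the scaffold protein NHERF1, rose 2.11-fold (log2 1.08, SE 0.05, limma adjusted p = 4.01e-05). Ezr, which encodes ezrin, the linker between membrane and actin in epithelial cells, rose 1.93-fold (log2 0.95, SE 0.07, limma adjusted p = 0.000201). Slc9a3r2, the gene of a related scaffold, rose 1.17-fold (log2 0.23, limma adjusted p = 0.0171). Its log2 difference was 0.21 to 0.26 with 1 array left out, but it was no longer past the threshold without array 2 of either genotype, wild type array 1 or FOG-2 Rb- array 3 (adjusted p = 0.0503 to 0.0679). The linker genes Msn and Rdx had log2 differences of -0.12 and -0.13 (adjusted p = 0.105 and 0.116). Their FOG-2 Rb- arrays all lay below the wild type arrays, by gaps of 0.09 and 0.04, as was so for 18% of all rows. Wt1 and Podxl are also genes of kidney podocytes; of 7 other podocyte genes measured, the actin-binding protein gene Synpo rose 1.40-fold, Cd2ap rose 1.18-fold, the forkhead factor gene Foxc2 fell 1.90-fold, and 4, among them the slit diaphragm gene Nphs1, did not pass. The Cd2ap call needed wild type arrays 1 and 2 and FOG-2 Rb- arrays 1 and 3, and with any of these left out 1 podocyte gene was higher.

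Gpm6a, Lrrn4 and Nkain4 encode membrane proteins better known from neurons. Gpm6a, a multi-pass proteolipid of the myelin protein family, measured 5.16, 5.004 and 4.998 in the wild type arrays and 5.52, 5.79 and 5.75 in the FOG-2 Rb- arrays. The means were 5.05 ± 0.09 and 5.69 ± 0.15 (SD, n = 3 each), a log2 difference of 0.63 (SE 0.09), or 1.55-fold, with 0.36 between the genotypes. Lrrn4, a leucine-rich repeat protein, measured 3.91, 3.98 and 4.10 in the wild type arrays and 4.36, 4.48 and 4.54 in the FOG-2 Rb- arrays. Its means were 3.996 ± 0.10 and 4.46 ± 0.10 (SD, n = 3 each), a log2 difference of 0.46 (SE 0.07), or 1.38-fold. Both genes were higher in every FOG-2 Rb- array, and Lrrn4 stayed low in both genotypes.

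Nkain4, whose protein interacts with the sodium pump, measured 7.04, 6.82 and 6.86 in the wild type arrays and 7.44, 7.20 and 7.43 in the FOG-2 Rb- arrays. The means were 6.91 ± 0.11 and 7.36 ± 0.14 (SD, n = 3 each), a log2 difference of 0.45 (SE 0.09), or 1.37-fold. The genotypes stood 0.16 apart, and the call did not hold when wild type array 2, or FOG-2 Rb- array 1 or 3, was left out, nor with the p-values of the authors' deposited table. Over the 10 marker genes, Msln and Muc16 included, FOG-2 Rb- arrays 1, 2 and 3 were the highest of their genotype for 5, 1 and 4. They were the lowest of it for 3, 5 and 2. Leaving out FOG-2 Rb- array 1 or 3 or wild type array 2 left 5 of the 10 called higher, where all arrays gave 7.

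The windows of Gpm6a and Lrrn4 are shown for comparison with that of Upk3b, with matches again in capitals. The Lrrn4 window lies at chr2:132880813-132881112 on the minus strand and holds CATTCC on the opposite strand, 196 bases before the start. The Gpm6a windows lie at chr8:54779184-54779483 and chr8:54954478-54954777 on the plus strand. The upstream window holds CATTCC on the opposite strand, 125 bases before the start. The downstream one holds AGATAG on the opposite strand at 142 bases and on the gene's own strand at 107 bases before the start.
Lrrn4: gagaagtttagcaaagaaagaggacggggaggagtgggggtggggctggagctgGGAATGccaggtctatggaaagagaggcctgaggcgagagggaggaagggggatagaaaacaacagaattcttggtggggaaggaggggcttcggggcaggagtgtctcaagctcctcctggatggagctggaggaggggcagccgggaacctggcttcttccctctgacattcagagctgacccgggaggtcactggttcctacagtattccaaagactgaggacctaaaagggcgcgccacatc
Gpm6a, upstream start: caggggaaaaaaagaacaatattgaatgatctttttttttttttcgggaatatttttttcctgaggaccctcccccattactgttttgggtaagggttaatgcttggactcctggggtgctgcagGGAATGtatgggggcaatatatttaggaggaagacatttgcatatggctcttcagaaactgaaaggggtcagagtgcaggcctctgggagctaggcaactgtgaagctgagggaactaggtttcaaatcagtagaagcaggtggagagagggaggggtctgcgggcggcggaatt
Gpm6a, downstream start: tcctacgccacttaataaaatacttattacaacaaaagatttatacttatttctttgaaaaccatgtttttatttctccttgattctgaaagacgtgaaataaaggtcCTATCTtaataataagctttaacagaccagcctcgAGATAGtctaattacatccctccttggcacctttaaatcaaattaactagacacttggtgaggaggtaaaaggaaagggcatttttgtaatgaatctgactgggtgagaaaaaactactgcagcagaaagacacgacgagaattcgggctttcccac
Upk3b was the only one of the 10 genes with both a GATA and a TEAD match in a single window, among the 5 genes that have one. The Muc16 window, at chr9:18674554-18674853 on the minus strand, holds AGATAG on the gene's strand 238 bases before the start, and Muc16 was nearly level between the genotypes.

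**Figure D2:**
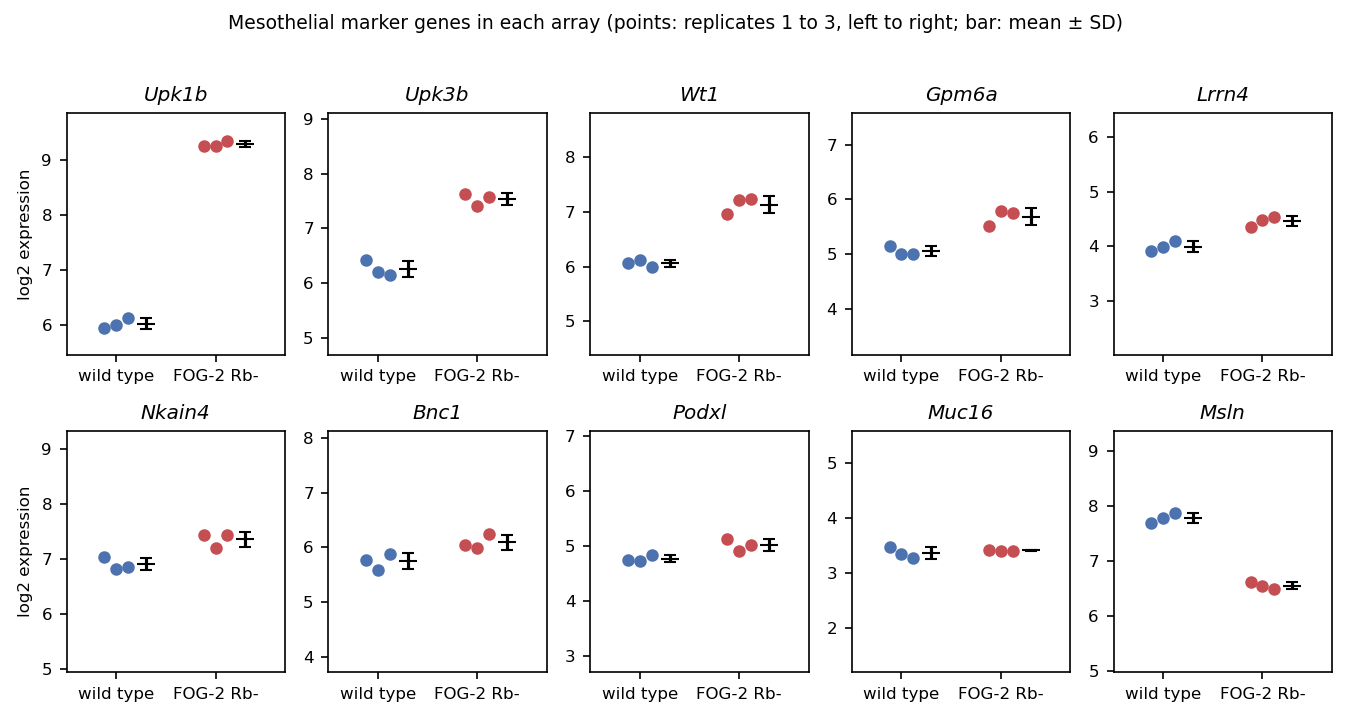
Log2 expression (vertical axis, each panel spanning the same range around its own midpoint) of the 10 marker genes in the 3 wild type (blue) and 3 FOG-2 Rb- (red) arrays, with the mean and SD beside each set. Upk1b shows the widest gap (3.13), Podxl the narrowest among the genes whose arrays stand apart (0.07), Muc16 overlaps, and Msln is lower in FOG-2 Rb- cells.

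Relatives of the marker genes in the same families were called in both directions, where 9.44% of all rows were called higher and 8.59% lower. Of 18 relatives measured, 5 fell, 1 rose and 12 did not pass, with a median log2 difference of -0.07; with wild type array 1 left out, 2 rose, Lrrn1 being the added gene. Lrrn3, like Lrrn4 a leucine-rich repeat protein gene of neurons, fell 7.26-fold (log2 difference -2.86, SE 0.06, limma adjusted p = 1.91e-06), from 8.27 ± 0.07 to 5.41 ± 0.09 (SD, n = 3 each). Cd34, a relative of Podxl and a marker of progenitor cells and vessels, fell 2.56-fold (log2 difference -1.35, SE 0.11, limma adjusted p = 0.000289), to a level within the odorant receptor range, so the size may be understated. Gpm6b, the partner gene of Gpm6a, fell 1.63-fold (log2 difference -0.71, adjusted p = 0.000167), and Bnc2, that of Bnc1, fell 1.596-fold (log2 difference -0.67, adjusted p = 0.000202). In the Nkain family, Nkain3 rose 1.35-fold (adjusted p = 0.00165), Nkain2 fell 1.25-fold, a call that held in 2 of the 6 fits without 1 array, and Nkain1 had a log2 difference of -0.03. The mucin genes Muc1 and Muc4 had log2 differences of -0.03 and -0.08 with overlapping arrays. Both lay under the odorant receptor 95th percentile in wild type and in FOG-2 Rb- cells. Egr1, also counted among the 18, had one of -0.02 with overlapping arrays. Upk1a, Upk2, Upk3a and Upk3bl are counted here as well as among the urothelial genes. Cd34 and Lrrn3 were known to fall before this list was drawn up, so nothing is read from their p-values or from the count of falls.

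**Figure D3:**
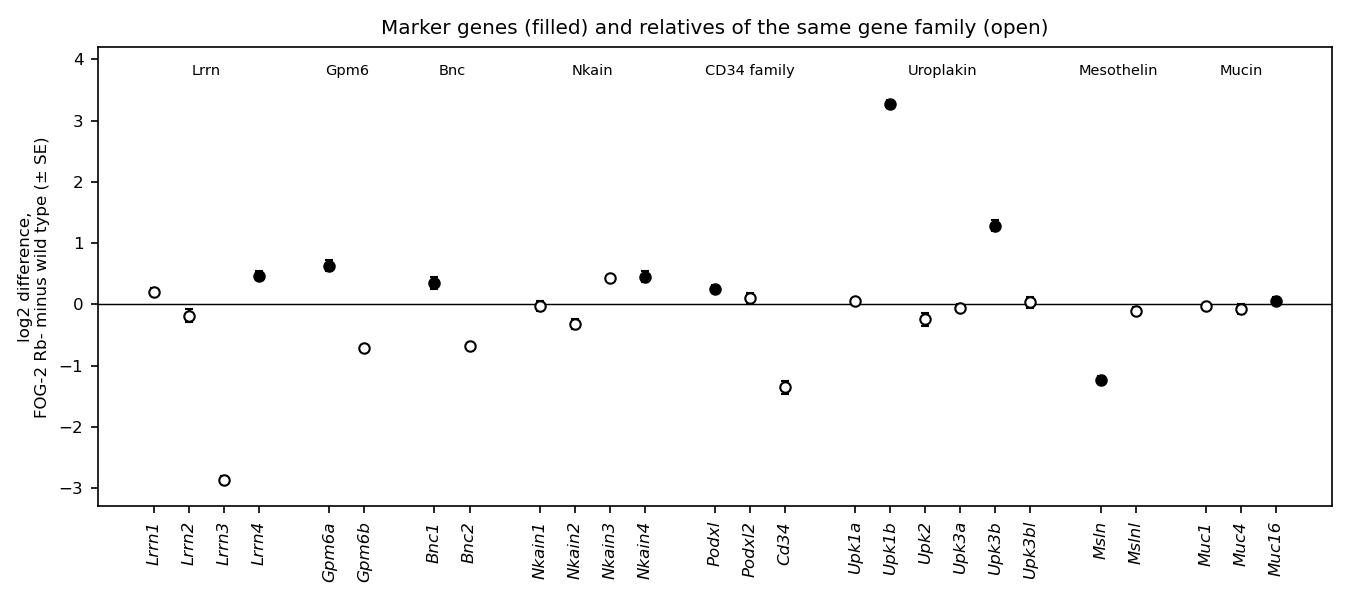
Log2 difference between FOG-2 Rb- and wild type cells (vertical axis, bars are limma's SE) for the marker genes except Wt1 (filled) and measured relatives except Egr1 (open), by gene family. Lrrn4 (0.46) and Lrrn3 (-2.86), Gpm6a (0.63) and Gpm6b (-0.71), and Bnc1 (0.35) and Bnc2 (-0.67) lie on opposite sides of 0. Upk1a stands at 0.06, Upk2 at -0.25, Upk3a at -0.05 and Upk3bl at 0.03.

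Other genes used as mesothelial markers gave a mixed picture. Of 25 measured, 9 rose, 4 fell and 12 did not pass, with a median log2 difference of 0.06 beside -0.02 over all rows. Of all rows, 9.44% were called higher and 8.59% lower. The keratin gene Krt18 rose 4.72-fold (log2 2.24, SE 0.18, limma adjusted p = 0.000301), although Krt8, whose protein pairs with keratin 18, had a log2 difference of -0.07 with overlapping arrays. Pdpn, which encodes the surface mucin podoplanin, rose 2.61-fold (log2 1.39, SE 0.06, limma adjusted p = 2.69e-05), from 7.37 ± 0.08 to 8.75 ± 0.07 (SD, n = 3 each). Slc9a3r1 and Ezr, given above with podocalyxin, belong to this list too. The tight junction gene Cldn15, Krt19, the cadherin gene Cdh2, Ildr2 and Prg4, which encodes the lubricant lubricin, made up the rest of the 9, with rises of 1.49-fold to 1.90-fold; Prg4 and Ildr2 lay within the odorant receptor range in wild type cells. The 4 that fell were Aqp1, a water channel gene, Efemp1, Thbd, which encodes thrombomodulin, and Tbx18, a factor of the epicardium, by 1.20-fold to 1.45-fold; these 9 lesser members were picked after their values were seen. The Tbx18 call ended when wild type array 1 or 2, or FOG-2 Rb- array 1 or 3, was left out. Calb2, which encodes the mesothelial marker calretinin, measured 3.30 in both genotypes, within the range of the odorant receptor rows. Pkhd1l1, Slpi, Crb2, Prr15 and Itln1, which also did not pass, lay under the 95th percentile of those rows in both genotypes. A lack of change cannot be read for these genes.

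**Figure D4:**
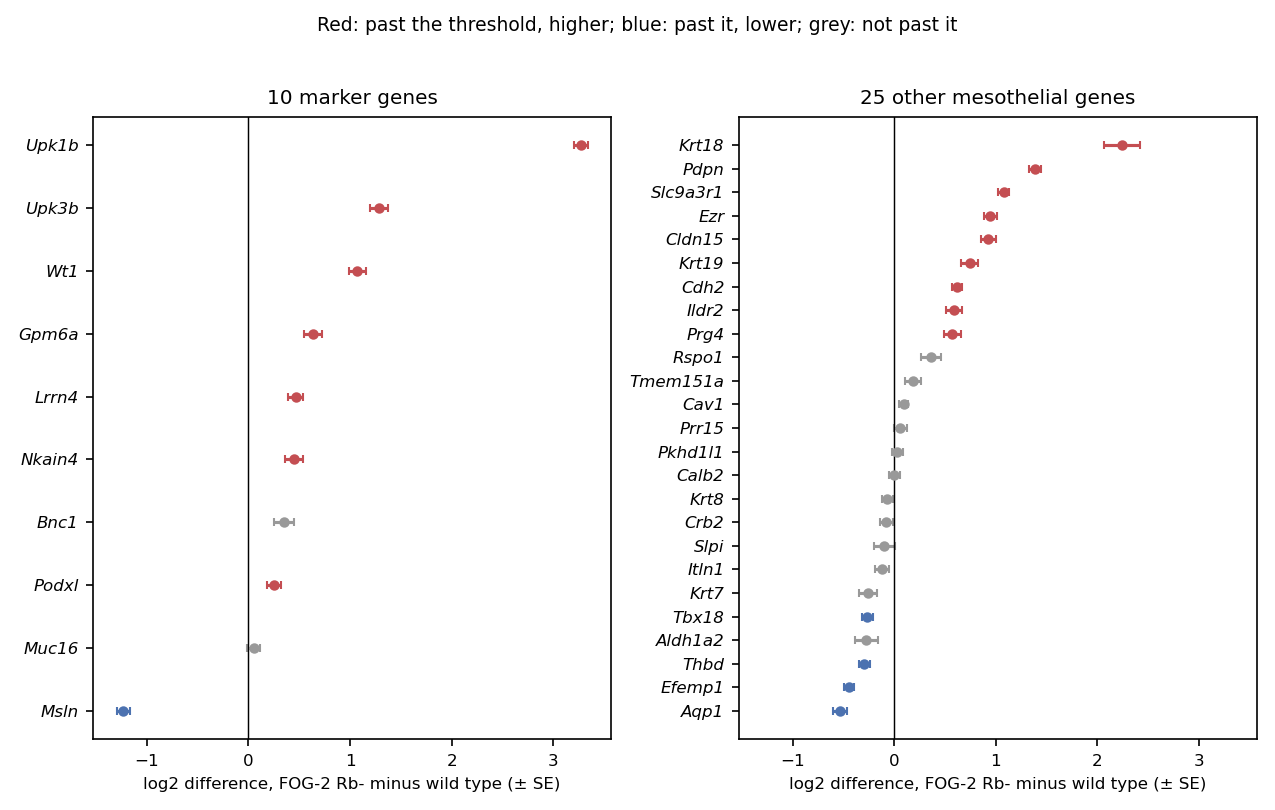
Log2 difference between FOG-2 Rb- and wild type cells (horizontal axis, bars are limma's SE) of the 10 marker genes (left) and 25 other mesothelial genes (right), coloured by whether the row passed an adjusted p of 0.05 as higher (red), lower (blue) or neither (grey). Both panels hold genes on either side of 0, from Msln (-1.23) to Upk1b (3.27) on the left and from Aqp1 (-0.54) to Krt18 (2.24) on the right.

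Markers of the labelled cell type and of other types were read beside these values. For each count below, the shares over all rows were 9.44% called higher and 8.59% called lower. Of 10 fibroblast genes, all above the odorant receptor range except Lum in FOG-2 Rb- cells, 5 fell and 2 rose: Dcn fell 3.41-fold, Lum 2.93-fold, Pdgfra 1.87-fold, Thy1 1.71-fold and S100a4 1.67-fold, while the collagen genes Col1a1 and Col3a1 rose 1.30-fold and 1.29-fold. Their summed linear level was 30091 to 31040 in wild type and 28936 to 29414 in FOG-2 Rb- arrays. The sum over the 10 mesothelial genes was 672 to 702 in wild type and 1356 to 1455 in FOG-2 Rb- arrays, a rise that rests mostly on Upk1b: without it the sums were 608 to 635 and 741 to 799, with Msln lower. Of 10 genes of epithelial sheets, the splicing factor gene Esrp2 rose 1.85-fold and 9 did not pass; Epcam, Grhl2, Esrp1, Cldn7, Ocln and Krt14 lay within the odorant receptor range, and the sums were 314 to 351 and 357 to 384. Of 8 endothelial genes, Kdr rose 5.18-fold and 7 did not pass, and Tie1, Tek, Cldn5 and Emcn lay within the odorant receptor range. The sums were 235 to 254 and 386 to 406, and without Kdr 193 to 214 and 190 to 206. Of 6 macrophage genes, Cd68 rose 1.62-fold and Csf1r 1.26-fold, with sums of 264 to 275 and 371 to 373. Cd68, with means of 7.28 and 7.97, had by far the highest level of the 6, so the sums mostly follow it. Ptprc, Adgre1, Itgam and Aif1 lay within the odorant receptor range and did not pass. The Csf1r call ended when array 2 or 3 of either genotype was left out, which left 1 gene. None of 7 cardiac muscle genes passed in limma (1 had an unadjusted p under 0.05), with sums of 413 to 421 and 409 to 468. Actc1, Myl7, Tnni3 and Ryr2 lay within the odorant receptor range. Tnnt2 passed with wild type array 3 left out, with quantile normalization anew, with the variance prior changed and without dim rows. No gene of the cardiac list passed from the authors' deposited p-values. The part that any of these cell types had in the differences of the mesothelial genes was not tested.

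Named rows, without predicted gene models and clone-type symbols, were ranked by root mean square difference over the 6 arrays, after each row's wild type mean was subtracted. Those most like Upk1b were Sytl5 (0.125 log2 units away), the cornified envelope gene Sprr1a (0.129), Crybg1 (0.178), the zinc receptor gene Gpr39 (0.190) and Scel (0.242), which encodes sciellin. Their log2 differences ran from 3.06 to 3.61. Sytl5, Crybg1, Gpr39 and Scel lay under the odorant receptor 95th percentile in wild type cells, so these differences may be understated and their order is not read. Those most like Msln were the ephrin receptor gene Epha3 (0.0645), Clip4 (0.0696), the matrix protein gene Tgfbi (0.0752), the neuropilin gene Nrp2 (0.0804) and the T-box factor gene Tbx5 (0.0831), with log2 differences from -1.17 for Tgfbi to -1.33 for Tbx5. No other marker gene was among the 5 rows nearest to either.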

How the data were processed

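Total RNA of 3 wild type and 3 FOG-2 Rb- fibroblast samples was labelled with biotin and hybridised to whole-transcript arrays, per the labels' protocols. RMA, a method that normalizes between arrays and summarises probes, and Partek are named in the submitters' processing notes, while their versions, the probe definition and the build used are not given here. The authors deposited log2 expression values, 1 row per Entrez gene, and a table of their own comparison that gives each row a p-value, the mutant to wild type ratio and a fold change with a sign (taken here as a score), per the file headers. Differences of group means were within 7.18e-06 of the log2 of that deposited ratio, so the scale is log2 and the direction is mutant over wild type. Scanner files, scan batches and detection calls were not used here; the number of arrays limits the precision.

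All 23748 rows were fitted in R 4.3.3 with the limma package, version 3.58.1 (functions lmFit and eBayes, two-sided, with genotype alone in the model) with Benjamini-Hochberg adjustment over all rows, and every adjusted p is from this fit. The platform annotation gave 1 symbol for 23111 rows and none for 637. Of 106 different genes in the other lists, 100 matched a row. The 10 genes and all lists were chosen with earlier results of these data known. Named by rule are all 10, and up to 4 called genes of each other list with the largest difference whose arrays did not overlap (or else the gene of smallest p). So are the 5 rows most alike in pattern to Upk1b and to Msln, with predicted gene models and clone-type symbols left out. Further genes of the lists, called or not, were named after their values were seen. Promoter sequences and coordinates are from RefSeq, build GRCm38.p6. On simulated data with the means and SDs of all 23748 rows, 50 genes were changed by each size. The fit recovered 28% of genes changed by 0.3 on the log2 scale, 60% by 0.5, 88% by 1 and 100% by 2, and 5 of 143 calls were false. A far smaller share of rows was changed there than the 18% called in the data, and the adjusted threshold depends on that share. These rates therefore do not carry over to the calls given here.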

Additional observations from a re-analysis of the deposited data

How the results depend on the processing

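Each of the 10 differences kept its sign with 1 array left out, arrays centred on their medians or quantile normalization repeated; with 1 array left out Upk1b ranged from 3.23 to 3.33, Msln from -1.28 to -1.19 and Muc16 from 0.00 to 0.11. With 1 array left out, 5 to 7 of the 10 were called higher and 1 lower, and the replicate block gave 7 and 1, with Bnc1 called and Podxl not. Deviations from the genotype means had correlations of 0.0314, 0.0176 and 0.00208 between same-numbered samples, and of -0.0340 to 0.0205 between samples of other numbers. With 3 arrays per genotype, such values cannot settle whether the numbers pair the samples. The block gave 1681 higher and 1500 lower rows in all.

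With 1 array left out, 1492 to 1856 rows were higher and 1313 to 1668 lower, 1 to 2 relatives and 1 to 2 podocyte genes were higher, and 0 to 1 urothelial genes were lower. With arrays centred, 2 relatives and 1 podocyte gene were higher and 2 podocyte genes lower. Quantile normalization anew gave 2 relatives and 1 urothelial gene higher and 2 podocyte genes lower. With the replicate block, 0 urothelial genes were lower and 1 podocyte gene higher. Leaving out dim rows (mean under 5.69) left 0 urothelial genes and 8 of the 18 relatives to test. No urothelial call was therefore possible, and Nkain3, the relative that rose, was itself left out, so 0 relatives were higher. In that fit 2 podocyte and 2 linker or scaffold genes were lower. The authors' deposited p-values, adjusted, gave 1 podocyte gene higher and 1 linker gene lower, and a variance prior with trend 2 linker genes lower. The cause of the other shifts in these counts was not tested.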
